A study of Mus musculus with 9 samples.

Results

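The retinoid receptors and the proteins that carry retinoids into and inside cells were followed across 3 regions of the mouse optic cup. They comprise the retinoic acid receptors Rara, Rarb and Rarg, the retinoid X receptors Rxra, Rxrb and Rxrg, the cellular retinoic acid binding proteins Crabp1 and Crabp2, and the retinol transporter Stra6. The members were chosen by name, with earlier results of these data known. They were found as the probe sets whose single gene symbol in the platform annotation is one of these 9 names, which gave 12 probe sets of the 45101 on the array and 9 of 18193 named genes. Rxra had 3 probe sets, Rarg had 2 and every other member had 1. A gene with several probe sets was represented by the one with the highest mean over the 9 arrays.

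Total RNA was taken from mouse embryos at E11.5 by laser-assisted microdissection of the optic cup and hybridised to Affymetrix Mouse Genome arrays. The optic fissure samples took in cup cells up to 5 cell diameters from the edge of the fissure, and the other samples came from the middle of the nasal or of the temporal cup. Each region had 3 arrays, lettered A, B and C and described as biological replicates. All 3 groups are of the same age, and no mutation, strain, treatment or sex is given in the sources used here, nor whether embryos were pooled or whether regions of 1 letter came from the same embryos. The p-values therefore measure the spread between these samples.

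Retinoic acid is made from retinol inside cells and acts through nuclear receptors that bind DNA as pairs of a retinoic acid receptor and a retinoid X receptor. Retinoid X receptors also pair with other nuclear receptors, among them those for thyroid hormone, vitamin D and fatty acids. Stra6 brings retinol from its blood carrier into the cell, and the Crabp proteins bind retinoic acid in the cytoplasm, where Crabp2 passes it to the receptors. In the early eye, retinoic acid made in the cup is known to be needed for the ventral cup and for the mesenchyme around it.

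The receptor pairs recognise direct repeats of a short hexamer, and the retinoic acid response element of the Rarb promoter is the textbook case. RefSeq promoters (assembly GRCm38.p6, 250 bases before to 50 bases after a gene's start) were matched for 8 of the 9 members, which have 18 promoters between them. Crabp2 is named only. The hexamer was searched on both strands in 4 forms, which were AGGTCA and its variant with the letters AGTTCA, besides GGGTCA and its variant with the letters GGTTCA. It was also searched as 2 hexamers in the same direction with 1, 2 or 5 bases between them. Each repeat also counts as 2 hexamers. Among the members, only Rarb held a repeat with a 5-base spacer, a pattern found in 32 of 32851 promoters of this length (0.0974%). The promoter is shown because it carries that element, from 53 to 37 bases before the start, in capitals. It lies on the minus strand at chr14:16575427-16575726.
Rarb promoter: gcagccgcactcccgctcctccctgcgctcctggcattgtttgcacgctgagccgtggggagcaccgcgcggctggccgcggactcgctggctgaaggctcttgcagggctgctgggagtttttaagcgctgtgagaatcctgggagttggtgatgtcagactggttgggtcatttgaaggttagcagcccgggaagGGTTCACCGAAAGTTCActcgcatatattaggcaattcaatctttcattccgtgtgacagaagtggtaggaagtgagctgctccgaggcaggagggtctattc

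The element alone is set beside the one repeat of the same kind in the promoter of Cyp26a1, which encodes an enzyme that breaks down retinoic acid and had the largest fall in the fissure among the pathway genes tested. The capitals mark the hexamers. The Rarb element lies at chr14:16575513-16575529 and the Cyp26a1 element at chr19:37697776-37697792, and both are written as read on the minus strand. For Cyp26a1 that is the strand opposite to the gene.
Rarb element: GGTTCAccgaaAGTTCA
Cyp26a1 element: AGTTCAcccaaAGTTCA

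Rxrg has 2 RefSeq promoters, shown because Rxrg is the receptor with the clearest regional difference. Both lie on the plus strand, at chr1:167598112-167598411 and chr1:167618015-167618314, and the capitals mark the hexamers on either strand. The first holds 1 hexamer on the opposite strand and the other holds 2, at 164 to 159 and at 88 to 83 bases before the start.
Rxrg promoter 1: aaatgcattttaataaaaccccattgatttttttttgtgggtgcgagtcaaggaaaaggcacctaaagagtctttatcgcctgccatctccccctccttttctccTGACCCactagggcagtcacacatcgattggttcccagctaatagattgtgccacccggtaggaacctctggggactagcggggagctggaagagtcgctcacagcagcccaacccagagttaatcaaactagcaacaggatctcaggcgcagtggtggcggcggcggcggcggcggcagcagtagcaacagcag
Rxrg promoter 2: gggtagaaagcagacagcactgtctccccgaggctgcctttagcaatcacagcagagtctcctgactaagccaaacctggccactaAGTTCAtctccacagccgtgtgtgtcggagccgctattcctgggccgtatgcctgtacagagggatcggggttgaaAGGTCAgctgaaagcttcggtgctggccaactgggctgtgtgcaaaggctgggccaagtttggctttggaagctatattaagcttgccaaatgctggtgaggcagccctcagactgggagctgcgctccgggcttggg

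No member promoter held a repeat with a 1-base or a 2-base spacer, patterns found in 0.222% and 0.268% of all promoters. Single hexamers occurred in 8 of the 18 member promoters, which belong to Rara, Rarb, Rarg, Rxra, Rxrg and Stra6, and in 43.7% of all promoters. These matches describe letters in a window and do not show that a receptor binds there.

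The values are linear intensities whose mean, after the lowest and highest 2% are left out, was 150 on every array, with array medians between 27.5 and 30.3. A gene was tested if it exceeded the array's 40th percentile, an intensity of 15.7 to 17.5, on at least 3 arrays, which kept 12770 genes and 8 of the 9 members. Fissure sample B stood apart from fissure samples A and C on the first principal component (-9.395 against -38.64 and -43.05, with the nasal and temporal samples at 4.63 to 29.52). The ratio of 3-prime to 5-prime Gapdh signal rises as RNA shortens. It was 8.12, 4.93 and 15.0 in fissure samples A, B and C. In nasal samples it was 6.08, 4.90 and 8.77, and in temporal samples 7.42, 4.46 and 6.69. The 3-prime signal of the dap spike, a control, was 844.4, 1179.8 and 2099.2 in fissure samples A, B and C. In nasal samples it was 492.6, 721.9 and 1060.2, and in temporal samples 420.1, 576 and 959.5. Within each letter this signal was highest in the fissure. Its part in the fissure differences was not tested. Leukocyte markers had a summed intensity of 2857 to 3406 in the fissure, 499 to 783 in nasal and 398 to 665 in temporal samples. Of 11 tested, Aif1, C1qa and C1qc exceeded the 40th percentile in fissure samples only and so had to differ, and the other 8 all rose in the fissure. Ventral cup markers had sums of 9942 to 11706, 1560 to 2718 and 1857 to 2360 in the same order. Ntn1 was tested through the fissure samples alone, and the other 5 tested rose. Of 12 periocular mesenchyme genes 4 rose and 2 fell, leaving out Eya2, which was tested through the fissure samples alone. Of 7 lens genes 4 rose and 1 fell, and Crygd, Mip, Bfsp1 and Foxe3 were below the 40th percentile on every array. Bfsp2, counted among the 7, was tested through nasal and temporal samples alone (3 to 7.2 in the fissure). It could therefore only be lower in the fissure. Surface ectoderm markers had sums of 490 to 566 in the fissure, 1177 to 1562 in nasal and 881 to 1315 in temporal samples. Of 6 tested 0 rose and 3 fell, leaving out Cdh1, tested through the fissure samples alone. Dsp, counted among the 6, was tested through the nasal and temporal samples alone (10.1 to 12.6 in the fissure). It could therefore only be lower in the fissure. Of 11 pigment epithelium genes 1 rose and 5 fell, of 8 retinal progenitor genes 2 fell, and of 8 neuron genes 2 fell. In the marker counts so far, a gene rose or fell if its limma adjusted p was below 0.05. The fissure was set against the other regions averaged. By the same rule 5.72% of all tested genes rose and 2.88% fell. In limma 0 of 7 endothelial and 0 of 6 erythroid genes passed, although 2 and 3 of them had unadjusted p-values below 0.05. With the sample letter as a replicate block 1 endothelial and 3 erythroid genes passed as higher, beside 17% of all genes in either direction. Erythroid sums were 13334.5 to 17828.1 in the fissure, 9466.9 to 14809.6 in nasal and 11524.6 to 13340.6 in temporal samples. Within each letter the erythroid sum was highest in the fissure. Markers of several cell types thus moved with the fissure comparisons, and their part in the members' differences was not tested. In tissue of this kind, fewer cells of a type and less RNA per cell cannot be told apart.

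**Figure D1:**
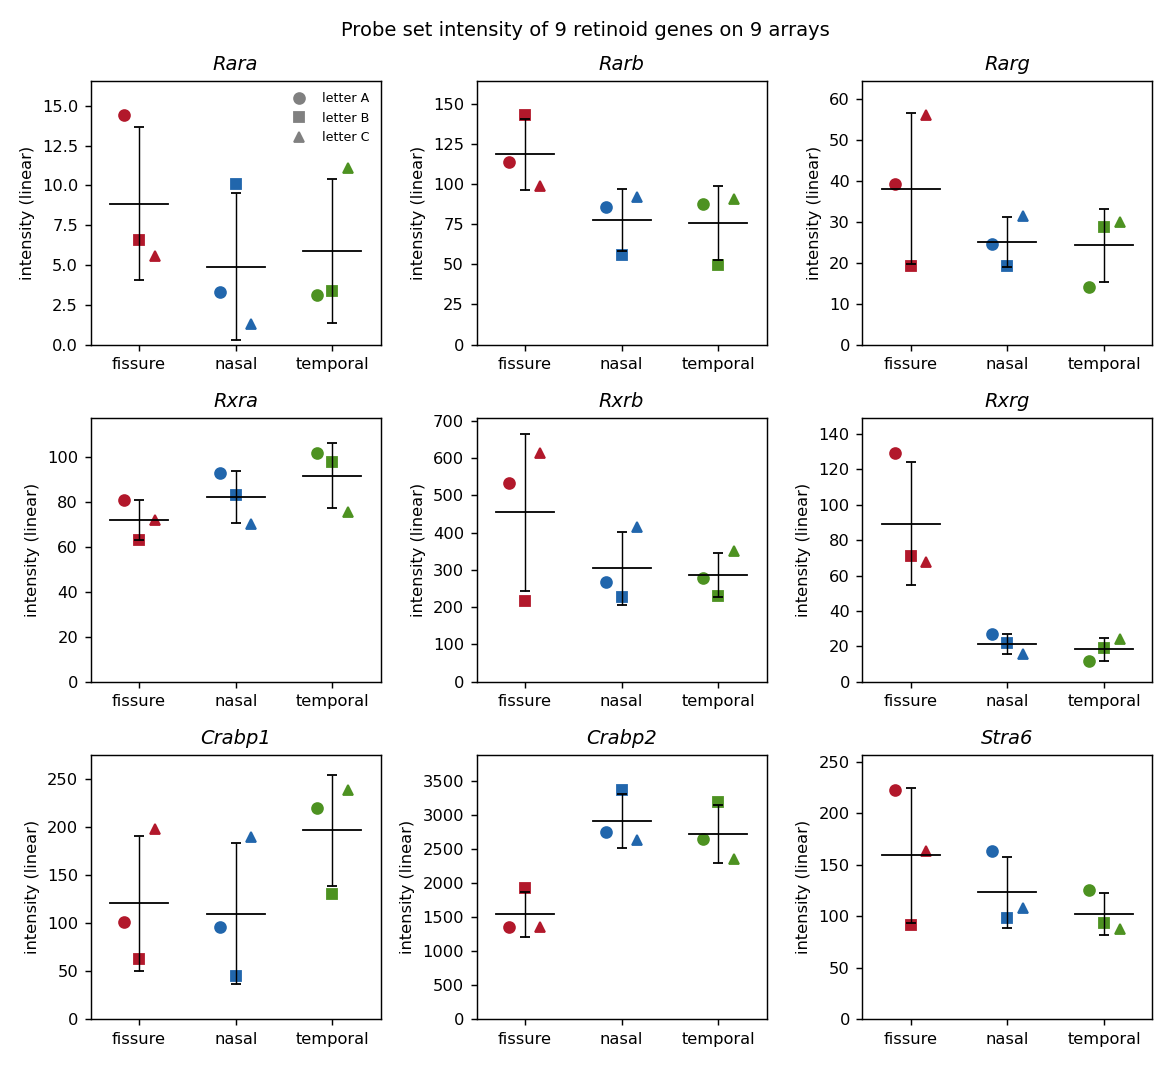
Linear probe set intensity of each of the 9 genes in fissure, nasal and temporal samples, 1 point per array with its letter as the symbol and a bar at the mean of 3; each panel has its own scale from 0. Rxrg is higher in all 3 fissure samples (67.9 to 129.5) than in any other (11.7 to 26.8), and Crabp2 is lower in all 3 (1346.3 to 1921.5 against 2343.2 to 3368.5).

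Among the members, Rxrg rose and Crabp2 fell in the optic fissure, and the other 6 tested members did not pass the test. A member passed at an adjusted p below 0.05 in limma, adjusted by the Benjamini-Hochberg method over all tested genes. Against the mean of nasal and temporal samples, 1 member rose and 1 fell of 8 tested, beside 8.6% of all tested genes called in either direction (5.72% higher and 2.88% lower). Against the nasal cup the same 2 genes passed, beside 6.37% of all genes, and against the temporal cup they passed beside 5.36%. Between the nasal and the temporal cup 0 of 8 members passed, 0 had an unadjusted p below 0.05, and 0.047% of all genes were called. The fissure comparisons share the fissure samples, so their counts are not independent of one another.

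The median difference of the 8 tested members, on the log2(intensity + 16) scale used for every difference here, was 0.38 for the fissure against the other regions averaged, with a median of 0.04 over all genes tested. For nasal against temporal it was 0.05, with -0.001 over all genes. In the fissure comparisons, Rarb, Rxrg and Crabp2 had values in the fissure that did not overlap those of the region or regions compared. That separation was seen in 14.2% of all tested genes against nasal and temporal together, in 22.5% against nasal and in 21.7% against temporal.

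**Figure D2:**
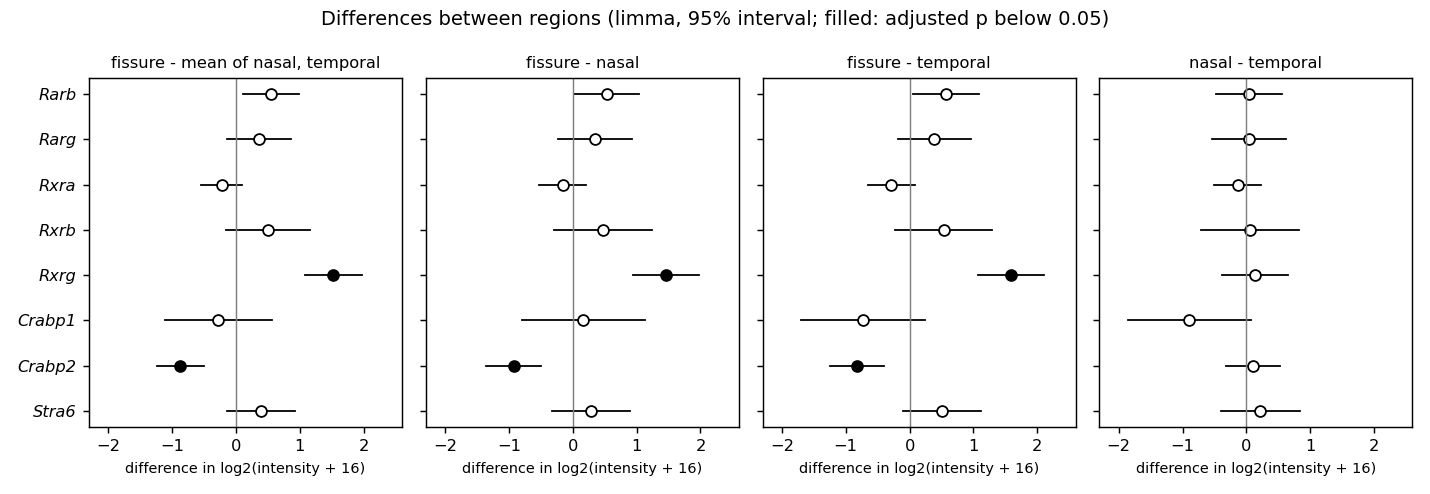
Difference between regions for the 8 tested members in log2(intensity + 16), with 95% intervals, 1 panel per comparison; filled points have a limma adjusted p below 0.05. Rxrg (1.52, 1.46 and 1.59) and Crabp2 (-0.87, -0.92 and -0.82) are filled in the 3 fissure panels, and no point is filled for nasal against temporal.

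Rara encodes the broadly expressed retinoic acid receptor alpha. Its probe set read 14.4, 6.6 and 5.6 in fissure samples A, B and C, 3.3, 10.1 and 1.3 in nasal samples, and 3.1, 3.4 and 11.1 in temporal samples. It lay below the 40th percentile on all 9 arrays, so Rara was not tested and its values have no order. Intensities at this level do not show that the gene is silent.

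Rarb encodes retinoic acid receptor beta, whose own promoter carries the element printed above. It read 113.7, 142.7 and 98.8 in fissure samples A, B and C, 85.5, 55.8 and 91.8 in nasal samples, and 87.8, 49.5 and 90.5 in temporal samples. All 3 fissure samples lay above all nasal and temporal samples, though fissure C, the lowest, was close to nasal C. The means of the fissure, nasal and temporal samples were 118 ± 22.3, 77.7 ± 19.2 and 75.9 ± 22.9 (SD, n = 3 each). The difference from the mean of nasal and temporal was 0.55 (SE 0.20, 95% interval 0.11 to 0.99), which did not pass the limma test over all genes (unadjusted p = 0.0194, adjusted p = 0.128). Against nasal alone it was 0.53 (limma adjusted p = 0.249) and against temporal 0.57 (limma adjusted p = 0.217). Within letters the fissure exceeded the mean of the other regions by 0.34 in A, 1.21 in B and 0.10 in C, so most of the difference came from letter B.

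Rarg encodes retinoic acid receptor gamma. Its main probe set read 39.1, 19.1 and 55.9 in fissure samples A, B and C, 24.5, 19.2 and 31.4 in nasal samples, and 14.0, 28.8 and 30.0 in temporal samples. The groups overlapped, with fissure B among the lowest values. The difference from the mean of nasal and temporal was 0.37 (SE 0.23, limma adjusted p = 0.387), with 0.65 when fissure B was left out and 0.13 when fissure C was. The other Rarg probe set read 0.9 to 3.6 and was below the 40th percentile on every array.

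Rxra encodes retinoid X receptor alpha. Its brightest probe set read 80.9, 63.2 and 71.9 in fissure samples A, B and C, 93.1, 83.2 and 70.1 in nasal samples, and 102.1, 97.9 and 75.5 in temporal samples. The ranges overlapped, with means of 72.0 ± 8.85, 82.1 ± 11.54 and 91.8 ± 14.3 in that order (SD, n = 3 each). The difference from the mean of nasal and temporal was -0.22 (SE 0.15, limma adjusted p = 0.420), with a 95% interval of -0.54 to 0.10.

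The other Rxra probe set in use read 35.7, 32.3 and 29.4 in fissure samples A, B and C, 32.7, 33.6 and 32.8 in nasal samples, and 42.2, 42.0 and 39.6 in temporal samples. Here the temporal samples lay above every other sample. In a fit of all probe sets the difference between fissure and temporal was -0.24 (limma adjusted p = 0.460), and that between nasal and temporal was -0.22 (limma adjusted p = 1), so neither passed. The remaining Rxra probe set read 1.0 to 6.4, below the 40th percentile on every array.

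Rxrb encodes retinoid X receptor beta. It read 533.2, 216.1 and 614.9 in fissure samples A, B and C, 268.5, 228.5 and 415.6 in nasal samples, and 278.3, 230.6 and 350.4 in temporal samples. Fissure samples A and C were above every other sample and fissure B was the lowest of all 9, so the groups overlapped. The difference from the mean of nasal and temporal was 0.50 (SE 0.30, limma adjusted p = 0.369). It was 0.33 without fissure A (limma adjusted p = 0.754) and 0.23 without fissure C (0.838). Without fissure B it was 0.95 and passed (limma adjusted p = 0.0224), as did the differences from nasal (0.92, adjusted p = 0.0479) and temporal (0.98, adjusted p = 0.0401). The Gapdh ratio was also highest in fissure C and low in the 3 samples lettered B, and with that ratio as a covariate the difference was 0.13 (limma adjusted p = 0.760). Within each letter the ratio was highest in the fissure, so this fit cannot fully separate the ratio from the region.

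Rxrg encodes retinoid X receptor gamma, the member of its family with the most restricted expression. It read 129.5, 70.8 and 67.9 in fissure samples A, B and C, 26.8, 21.7 and 15.5 in nasal samples, and 11.7, 18.9 and 24.3 in temporal samples. Every fissure sample was above every other sample, and 2 of the nasal and temporal samples lay below the 40th percentile. The means of the fissure, nasal and temporal samples were 89.4 ± 34.8, 21.3 ± 5.66 and 18.3 ± 6.32 (SD, n = 3 each). On the log2(intensity + 16) scale Rxrg rose by 1.52 (SE 0.20, 95% interval 1.08 to 1.97, limma adjusted p = 7.19e-04) against the mean of the other regions, or 2.88-fold on that scale, which understates the change of dim genes. The rise was 1.46 against nasal (limma adjusted p = 0.00342) and 1.59 against temporal (limma adjusted p = 0.00204). Within letters it was 2.08 in A, 1.26 in B and 1.24 in C. Fissure B, which stood apart from the other fissure samples over all genes, was therefore as high in Rxrg as fissure C. Nasal and temporal samples overlapped, with a difference of 0.13 (95% interval -0.39 to 0.65).

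Crabp1 binds retinoic acid in the cytoplasm and is known from early neurons among other cells. It read 101.0, 62.1 and 198.0 in fissure samples A, B and C, 95.4, 44.2 and 189.5 in nasal samples, and 220.1, 130.2 and 238.7 in temporal samples. The ranges of all 3 regions overlapped, but within each letter the temporal sample was the highest and the nasal sample the lowest. The letters set much of the spread, with B lowest and C highest in every region. The temporal mean was 196 ± 58.0, that of the fissure 120 ± 70.0 and that of the nasal cup 110 ± 73.7 (SD, n = 3 each).

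For Crabp1, nasal against temporal gave -0.89 (SE 0.44, unadjusted p = 0.0680, limma adjusted p = 1), with -1.08, -1.28 and -0.31 within letters A, B and C. Fissure against temporal gave -0.72 (SE 0.44, limma adjusted p = 0.434), with -1.01, -0.91 and -0.25 within the letters. The same-lettered samples deviated together over all genes, and with the letter as a block the fissure value of Crabp1 passed as lower than the temporal one (-0.72, SE 0.19, limma adjusted p = 0.0358). The same blocked fit over all probe sets did not pass it (limma adjusted p = 0.0606). With this replicate block 12.1% of all genes passed in that comparison (4.37% as lower), and 2 members were lower instead of 1. Nasal against temporal did not pass with the block (limma adjusted p = 0.242), nor did fissure against nasal (0.17, adjusted p = 0.610). With the Gapdh ratio as a covariate in place of the block, fissure against temporal was -1.27 for Crabp1 and passed (limma adjusted p = 0.00583). As the ratio was highest in the fissure within each letter, that fit cannot fully separate the ratio from the region.

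Marker genes of neurons also varied between these samples. Of 10 listed, 9 had a probe set, and their summed intensity was 226.7, 194.7 and 632.2 in fissure samples A, B and C, 460.9, 290.0 and 845.3 in nasal samples, and 941.1, 1167.5 and 1177.7 in temporal samples. The brightest of them in temporal samples were Atoh7 (390.6 to 513.1), Neurog2 (207.3 to 381.5) and Neurod1 (124 to 255.5). These factors were higher in every temporal sample than in any fissure sample. Tubb3, Elavl3, Elavl4, Stmn2, Dcx and Isl1 overlapped between fissure and temporal samples. Of the 8 tested in fissure against temporal, 0 rose and 2 fell, beside 5.36% of all genes called in either direction. No neuron marker was below the 40th percentile on all arrays, and the part of neurons in the Crabp1 values was not tested.

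Crabp2 delivers retinoic acid to its receptors in the nucleus. It read 1346.3, 1921.5 and 1353.1 in fissure samples A, B and C, 2748.8, 3368.5 and 2627.9 in nasal samples, and 2639.1, 3183.1 and 2343.2 in temporal samples. Every fissure sample was below every other sample, and letter B was the highest in each region. The means of the fissure, nasal and temporal samples were 1540 ± 330, 2915 ± 397 and 2722 ± 426 (SD, n = 3 each). Against the mean of nasal and temporal Crabp2 fell by 0.87 (SE 0.17, 95% interval -1.24 to -0.51, limma adjusted p = 0.00711), which is 1.83-fold on the same scale.

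The fall of Crabp2 was 0.92 against nasal (limma adjusted p = 0.0153) and 0.82 against temporal (limma adjusted p = 0.0304). Within letters A, B and C the fissure differed from the mean of the other regions by -0.99, -0.76 and -0.87, so the fall was similar in all 3. Against the mean of the other regions the call was lost without fissure A (limma adjusted p = 0.0601) or fissure C (0.0514). Against nasal it was lost without fissure A (0.0849), fissure C (0.0745) or nasal B (0.0639), and against temporal without fissure A (0.147), fissure C (0.133), temporal A (0.0832) or temporal B (0.113). With the replicate block and all 9 arrays the limma adjusted p for the mean of the other regions was 5.20e-04. Nasal and temporal samples overlapped, with a difference of 0.10 (95% interval -0.32 to 0.53). Pax6 and Sfrp2 were the 2 retinal progenitor markers that fell in the fissure. The summed intensity of 8 such markers was 8061 to 8619 there, 10927 to 13295 in the nasal cup and 11755 to 12948 in the temporal cup. Other markers on the list went the other way or did not pass. Lhx2 gave 0.62 (limma adjusted p = 0.0820, and 0.00722 with the replicate block) and Six3 gave 0.20 (limma adjusted p = 0.592). Rax, Sox2, Six6 and Hes1 were below 0 and did not pass. The part of these markers in the Crabp2 values was not tested.

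Stra6 encodes the membrane receptor that takes up retinol from its carrier protein, and in the later eye it is found in the pigment epithelium. It read 223.1, 91.6 and 163.2 in fissure samples A, B and C, 163.0, 98.4 and 108.0 in nasal samples, and 125.9, 93.4 and 87.9 in temporal samples. Fissure A was the highest of all samples, but fissure B lay among the lowest, so the regions overlapped. The means were 159 ± 65.8, 123 ± 34.9 and 102 ± 20.5 in that order (SD, n = 3 each). The difference from the mean of nasal and temporal was 0.40 (SE 0.24, limma adjusted p = 0.382), and against temporal alone 0.50 (SE 0.28, limma adjusted p = 0.383). The former was 0.13 without fissure A and 0.71 without fissure B, and neither passed. Of 11 tested pigment epithelium markers, Mitf rose in the fissure and 5 fell, and their part in the Stra6 values was not tested.

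**Figure D3:**
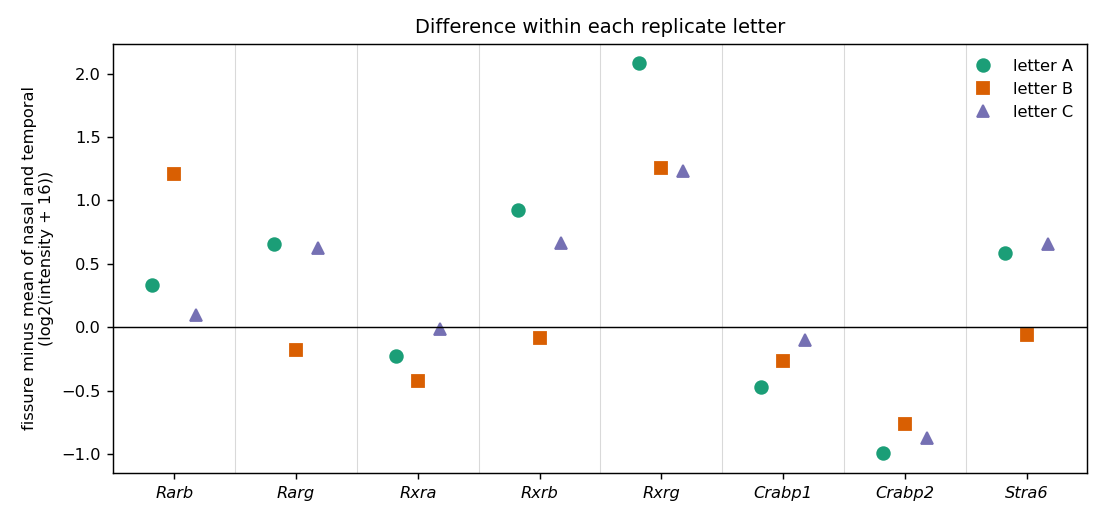
Difference of the fissure sample from the mean of the nasal and temporal samples of the same letter, in log2(intensity + 16), 1 symbol per letter, for the 8 tested members. Rxrg is above 0 in all 3 letters (1.24 to 2.08) and Crabp2 below 0 in all 3 (-0.99 to -0.76), while Rarg, Rxrb and Stra6 are above 0 in A and C and slightly below 0 in B.

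Rarg, Rxrb and Stra6 shared 1 pattern within letters. The fissure exceeded the mean of the other regions in A and C (0.59 to 0.92 in A, 0.62 to 0.67 in C) and was at or just under it in B (-0.18 for Rarg, -0.08 for Rxrb and -0.06 for Stra6). Over all 3 regions the samples lettered B were also low in these genes, with a mean deviation of -0.20 for Rarg, -0.51 for Rxrb and -0.33 for Stra6. With the Gapdh ratio as a covariate, the difference from the mean of nasal and temporal was smaller in each. It was 0.18 for Rarg (limma adjusted p = 0.699), 0.13 for Rxrb (0.760) and 0.25 for Stra6 (0.632). Because the ratio itself was highest in the fissure within each letter, the covariate can also take up a regional difference. Rxra gave -0.23, -0.42 and -0.01 in letters A, B and C. With the letter as a block none of these 4 genes passed against the mean of nasal and temporal (limma adjusted p of 0.201 for Rarg, 0.0789 for Rxrb, 0.0991 for Stra6 and 0.214 for Rxra), while 17% of all genes did.

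The order of the regions can be given for each tested member. Rarb, Rarg, Rxrb, Rxrg and Stra6 had their highest mean in the fissure, and Crabp1 and Rxra in the temporal cup. For Crabp2 the order was nasal, temporal and fissure. Neighbours in these orders passed the test only where one of them was the fissure and the gene was Rxrg or Crabp2, so the order of the nasal and the temporal cup is not resolved for any member. A test over all 3 regions passed for Rxrg (limma F test, adjusted p = 0.00263) and Crabp2 (adjusted p = 0.0237), and not for the other 6 (adjusted p of 0.319 to 0.709), beside 5.58% of all tested genes.

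Among the other genes of the pathway, those that make and remove retinoic acid held both the highest and the lowest difference from the mean of the other regions. Of 15 genes for retinoic acid synthesis and degradation, 13 had a probe set and 10 were tested, of which 5 rose and 1 fell in the fissure, beside 5.72% and 2.88% of all genes. The counts were the same against nasal, and against temporal 3 rose and 2 fell. With the filter at the 60th percentile, 2 rose against the mean of nasal and temporal instead of 5. Cyp26a1, which degrades retinoic acid, fell by 3.60 (SE 0.27, limma adjusted p = 1.43e-05), with means of 11.8 ± 1.90, 284 ± 112 and 400 ± 165 in fissure, nasal and temporal samples (SD, n = 3 each). Aldh1a3, a retinaldehyde dehydrogenase, rose by 2.45 (limma adjusted p = 1.15e-04), and Rdh10, which makes retinaldehyde from retinol, rose by 1.87 (limma adjusted p = 1.64e-05). Dhrs3, which turns retinaldehyde back into retinol, rose by 1.68 (limma adjusted p = 0.00102), with means of 103 ± 40.9, 16.4 ± 4.98 and 23.7 ± 9.05 in the same order. The other enzymes that rose were Aldh1a2, a retinaldehyde dehydrogenase, and Cyp26b1, which degrades retinoic acid. They are named after their values were seen. Their nasal means were 6.1 and 9.37, near the bottom of the scale. Without fissure A, Aldh1a2 gave 1.38 and did not pass (limma adjusted p = 0.0706), nor did it with a pseudocount of 1 (0.0631). Against temporal, Aldh1a2 (limma adjusted p = 0.0845) and Cyp26b1 (0.115) did not pass, and Aldh1a1, a retinaldehyde dehydrogenase named after its value was seen, fell by 1.18 (limma adjusted p = 0.0405). Aldh1a3 is also on the ventral cup marker list.

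Of the genes whose promoter repeats are printed above, Rarb gave 0.55 and did not pass, while Cyp26a1 gave -3.60 and passed. The difference between these genes was not tested. Cyp26a1, like Crabp2, was lower in each fissure sample than in any other sample, and Aldh1a3 and Rdh10, like Rxrg, were higher in each.

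Of 13 genes for other retinoid and fatty acid carriers, 8 were tested, of which 1 rose and 1 fell, beside the same shares of all genes. Ttr, which carries retinol with its binding protein in blood, fell by 2.30 (SE 0.56, limma adjusted p = 0.0254), and Fabp7, a fatty acid binding protein of neural progenitors, rose by 0.80 (SE 0.22, limma adjusted p = 0.0417). Both calls were close to the threshold: Ttr lost its call without fissure A, fissure B, fissure C, nasal A or temporal B (limma adjusted p of 0.0518 to 0.105). Fabp7 lost it without any 1 array other than fissure B and nasal C (limma adjusted p of 0.0566 to 0.218). Rlbp1, the retinaldehyde binding protein of the retina, gave -0.64 (limma adjusted p = 0.0638, and 0.0113 with the replicate block). Rbp4, the blood carrier that Stra6 binds, gave -0.35 (limma adjusted p = 0.321).

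The receptors act through co-activators and co-repressors. Of 18 listed, 16 were tested and 0 passed in limma against the mean of nasal and temporal, beside 8.6% of all genes. The median difference was -0.06, and 1 gene had an unadjusted p below 0.05. That gene was Ncoa1, a co-activator of nuclear receptors, at 0.53 (limma adjusted p = 0.0628, and 0.0439 with the replicate block). Tbl1x, a co-repressor subunit, gave -0.38 (limma adjusted p = 0.236), Hdac3, the deacetylase of the same complex, -0.13 (adjusted p = 0.574), and Nsd1, a histone methyltransferase, 0.14 (adjusted p = 0.579).

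Of 13 nuclear receptors that can pair with retinoid X receptors, 6 were tested and 0 passed in limma, with 1 at an unadjusted p below 0.05. Nr4a2, an orphan receptor that pairs with Rxra and Rxrg, gave -0.73 (SE 0.21, limma adjusted p = 0.0583, and 0.0321 with the replicate block). The thyroid hormone receptors Thra and Thrb gave -0.07 each (limma adjusted p = 0.833 and 0.828), and Nr1h3, an oxysterol receptor, gave 0.12 (adjusted p = 0.755). None of the partners tested passed as higher in the fissure. With 5.72% of all tested genes passing as higher, 0 of 6 says little about the partners.

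Of 22 genes known to respond to retinoic acid in eye or other tissue, 15 were tested, of which 4 rose and 1 fell, or 7 and 1 with the replicate block. Those added by the block were Foxc1, Dkk2 and Tshz1 (limma adjusted p of 0.00968, 9.27e-04 and 0.0231 with it). They are named after their values were seen. Foxc1 and Dkk2 overlapped between the fissure and the other regions, and Foxc1 is also on the periocular mesenchyme list. The block raised the share called over all genes as well, from 8.6% to 17%. The list was drawn up with earlier results of these data known, so its counts are a description. Egr1, an immediate-early factor, rose by 1.36 (limma adjusted p = 2.69e-04), Zfp503, a zinc finger repressor, by 1.35 (limma adjusted p = 5.49e-04), Meis2, a homeobox factor, by 1.23 (limma adjusted p = 6.86e-04), and Nr2f1, an orphan nuclear receptor, by 0.82 (limma adjusted p = 0.0161). Without fissure A or fissure C, Nr2f1 did not pass (limma adjusted p of 0.0870 and 0.0653). The gene that fell was Tshz3, a zinc finger factor named after its value was seen, by 0.76 (limma adjusted p = 0.0267); it lost its call without fissure A, fissure C, nasal A or temporal A (limma adjusted p of 0.0509 to 0.146). The median over all 15 was 0.13, beside 0.04 for all genes. Between the nasal and temporal cup, 0 of the 55 genes tested on these 5 lists passed in limma, with 2 (Aldh1a1 and Cyp26b1) at an unadjusted p below 0.05.

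**Figure D4:**
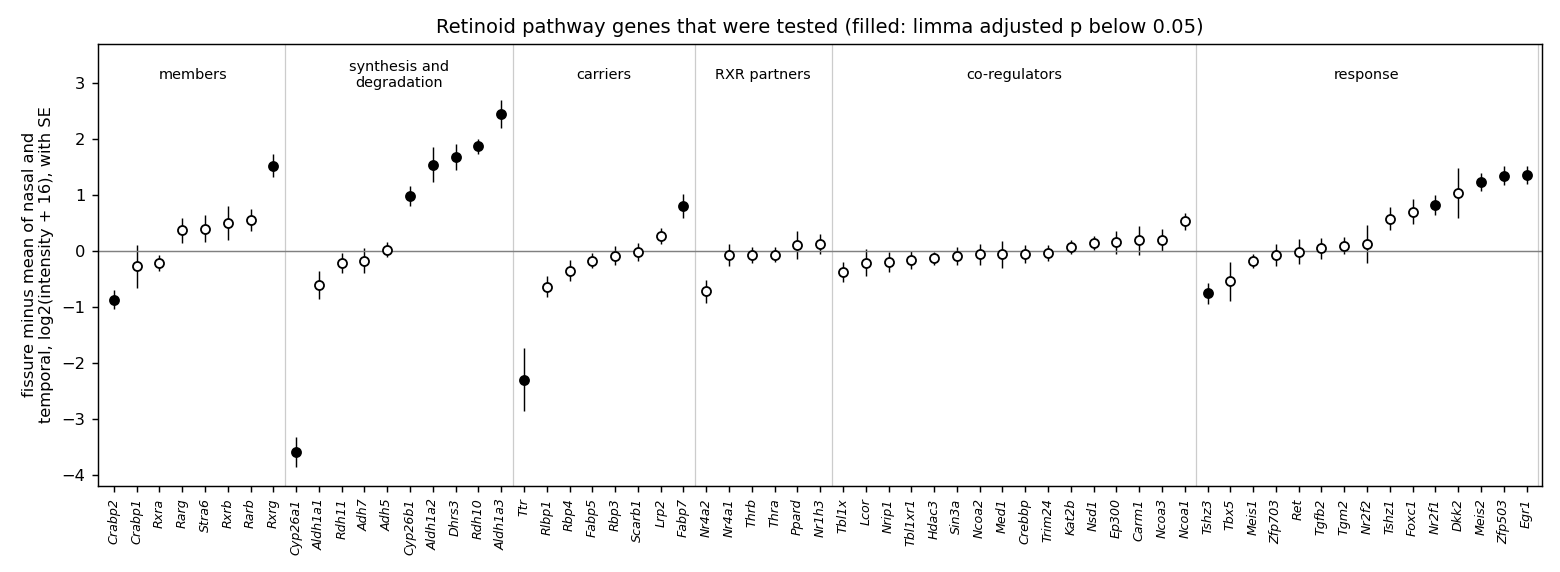
Difference between the fissure and the mean of nasal and temporal in log2(intensity + 16), with its SE, for the 8 tested members and the 55 tested genes of 5 retinoid lists; filled points have a limma adjusted p below 0.05. Rxrg and Crabp2 are filled among the members, and the widest spread is among the enzymes, from Cyp26a1 at -3.60 to Aldh1a3 at 2.45.

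The genes whose log2 values followed Rxrg and Crabp2 most closely over the 9 arrays, by Pearson's r, were looked up. The points share arrays and a regional split, so r is given as a description. For Rxrg these were Rgs8, a regulator of G protein signalling (r = 0.988), Reps2 (r = 0.970) and Gulo (r = 0.967). Rgs8 had means of 209 ± 38.8, 117 ± 4.38 and 107 ± 11.46 in fissure, nasal and temporal samples (SD, n = 3 each), and rose by 0.81 (limma adjusted p = 0.00442). Reps2 had means of 35.0, 12.2 and 13.8 in the same order and was tested through the fissure samples alone. It therefore had to be higher there, as Rxrg was. With the mean of all its probe sets Reps2 gave 0.36 and did not pass (limma adjusted p = 0.101).

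For Crabp2 the closest genes were Slco5a1, a member of an organic anion transporter family (r = 0.990), Hells, a chromatin remodeller of dividing cells (r = 0.986), and Casp8ap2 (r = 0.984). Slco5a1 had means of 100.4 ± 22.5, 219 ± 30.5 and 219 ± 48.8 in fissure, nasal and temporal samples (SD, n = 3 each), and fell by 1.02 (limma adjusted p = 0.00338). With the mean of all its probe sets it gave -0.74 and did not pass (limma adjusted p = 0.0543). Hells fell by 0.51 (limma adjusted p = 0.0405; 0.0628 to 0.209 without any 1 array other than fissure B and temporal C, with the call lost), and Casp8ap2 gave -0.43 and did not pass (limma adjusted p = 0.0736, and 0.0218 with the replicate block).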

How the data were processed

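The authors deposited linear probe set intensities for 45101 probe sets on 9 arrays, 1 per sample. Their summary method was not given in the sources used here. Each array's mean after trimming 2% from each end was 150, so no further scaling was done. Names came from the platform annotation, which can be old: 34945 probe sets had 1 symbol, 932 several and 9160 none listed, beside 64 controls. Of the named ones, 34741 had a RefSeq row through their gene ID, and 0 symbols differed.

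The main test used limma 3.58.1 (lmFit and eBayes) in R 4.3.3 on log2(intensity + 16) of all 9 arrays, with a mean for each region and 1 probe set per gene, and p-values were adjusted by Benjamini-Hochberg over 12770 genes. The number of arrays limits the precision. The fit was also run on simulated data with independent errors on each array. Those lack the deviations that same-lettered arrays share, so they do not show how the test behaves with them.

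Each array's deviations from its region's mean were correlated between arrays. The correlations were 0.166 to 0.487 in the 9 pairs of arrays with 1 letter and -0.438 to 0.218 in the 18 other pairs, so the letters were taken as pairs, from the data and not the labels, and a blocked fit (letter as replicate block) was made too.

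The members, gene lists and rules were chosen with earlier results of these data known. Named were every member, up to 4 tested genes per list with the smallest p for fissure against the mean of the others, and the 3 genes most correlated with each member whose F test passed. Alternatives covered the filter, scaling, pseudocount, probe set summary, variance model, array weights, block, Gapdh covariate, regions fitted and each array left out. Figures used matplotlib 3.10.9.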

Additional observations from a re-analysis of the deposited data

How the results depend on the processing

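Rxrg passed in the fissure comparisons under every alternative run, and Crabp2 under most; the 119 of 130 alternative values of these genes that kept both direction and call left 11 that lost the call for Crabp2. The Crabp2 losses were without 1 array, or, against temporal, with a pseudocount of 1 (limma adjusted p = 0.0595) or only the regions compared (0.0606). With array weights, 6 members passed for fissure against the mean of the others (Rarb, Rarg, Rxrb and Stra6 added) and 5 for fissure against temporal, where all genes called rose from 1098 to 4100 and from 685 to 3133. The replicate block raised those counts to 2172 and 1541, and those against nasal from 814 to 1592 (2675 with array weights). Leaving out 1 array gave as few as 486, 373 and 329 genes against the mean, nasal and temporal, each without fissure A, and as many as 1652 against the mean and 1101 against temporal, without fissure B. Only 1 passed for fissure against temporal with a pseudocount of 1, and 1 with only the regions compared. The replicate block gave 3 members there (Crabp1 added) and changed no other member's call. Leaving out 1 array gave 1 to 3 members passing in each fissure comparison, with Rxrb added without fissure B, and 0 for nasal against temporal, where 2 to 17 of all genes passed under the alternatives, against 6. With the Gapdh covariate Crabp1 passed at -0.78 (limma adjusted p = 0.0320) against the mean of the others and at -1.27 against temporal (limma adjusted p = 0.00583). That covariate was itself highest in the fissure within each letter, so the fit cannot fully separate it from the region.

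None of the values that changed sign passed, before or after the change. With the Gapdh covariate, Crabp1 in fissure against nasal was -0.289 and Rxrb in nasal against temporal -0.00849. With array weights, Rarb in nasal against temporal was -0.0326. With the mean of all probe sets, Rxra in fissure against nasal was 0.00341. Thra against the mean of the others was 0.21 with the mean of all probe sets and 0.10 with array weights. Leaving out 1 array gave ranges for Crabp1 of -0.665 to 0.0622 against the mean of the others and -0.275 to 0.611 against nasal. For nasal against temporal the ranges were -0.188 to 0.22 for Rarb, -0.156 to 0.152 for Rarg, -0.178 to 0.231 for Rxrb, -0.0178 to 0.253 for Rxrg and -0.00666 to 0.219 for Crabp2. For Thra it was -0.164 to 0.0653 and for Thrb -0.152 to 0.0392. The causes were not tested. Rarg dropped out of the test with the filter at the 60th percentile, and fissure against the mean of the others has no fit with fewer regions.

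Signal limits the reading of Rara and of Rxrg outside the fissure, whose intensities lie near the bottom of the scale. The same holds for Aldh1a2, Dhrs3 and Cyp26b1 outside the fissure and for Cyp26a1 within it.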
